A study of Mus musculus with 6 samples.

Results

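The genes described here encode the machinery that makes, breaks down and reads out cyclic AMP: adenylyl cyclases (Adcy), cyclic nucleotide phosphodiesterases (Pde), the subunits of protein kinase A (PKA; Prkar and Prkac) and A-kinase anchors (Akap). They were taken from the count table by symbol, and 58 symbols matched. A gene was kept when it had at least 10 counts in at least 3 of the 6 libraries, which left 50 genes of the 35415 in the table. Ovaries of mice aged 3 months and in estrus were profiled by bulk RNA sequencing, with 3 wild-type and 3 Rnf111+/- libraries, and the labels give each library as a separate mouse. The product of Rnf111 is Arkadia, which tags inhibitors of TGF-beta signalling with ubiquitin, and the heterozygous mice were made with CRISPR-Cas9. Where in the gene the edit lies, and from which founder these mice came, is not stated in the labels.

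Cyclic AMP is the second messenger of the gonadotropins: hormone-bound receptors activate the stimulatory G protein, which switches on membrane cyclases. Phosphodiesterases hydrolyse cyclic AMP, cyclic GMP or both. PKA is a complex of regulatory and catalytic subunits, in which cyclic AMP binds the regulatory subunits and frees the catalytic ones, and anchors hold the complex at particular places in the cell. In the ovary this pathway drives granulosa cell differentiation and steroid synthesis, and high cyclic AMP inside the oocyte keeps it in meiotic arrest.

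Library totals ranged from 38261449 to 39474515 counts, and 3 counts, the detection floor, corresponded to 0.0747 to 0.0784 CPM (counts scaled to a common library size after trimmed-mean normalisation). Rnf111 itself was at 53.9 ± 0.477 CPM in wild-type and 44.6 ± 0.395 CPM in heterozygous ovaries (SD, n = 3 each; log2 fold change -0.27 ± 0.07 SE, adjusted p = 0.04), with no overlap between the groups. With 1 library left out in turn, Rnf111 stayed called only without wild-type replicate 3 (adjusted p = 0.0421). Wild-type replicate 3 stood apart: its log2 CPM correlated across genes at 0.983 with each of the other wild-type libraries, which correlated at 0.9945 with each other. Oocyte and granulosa markers were all detected, and none of the marker lists for 13 ovarian and neighbouring cell types had a gene at 0 counts in all libraries. Summed oviduct epithelium markers were at 347.7 CPM in wild-type replicate 3, against 154.7 and 168.2 in replicates 1 and 2. Its granulosa sum was the lowest of the 3, at 3468 against 7406 and 6777 CPM. The cause was not tested. In whole ovaries, fewer cells of a type and less RNA per cell cannot be told apart.

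Promoter stretches of PKA genes are shown because the cyclic AMP response element, TGACGTCA, is a sequence through which the pathway acts on transcription. They were also chosen because 1 PKA gene was called as higher and 1 as lower. RefSeq promoter windows (GRCm38.p6, 300 bases, from 250 before to 50 after an annotated start) were found for 41 of the 50 genes. Akap12, Akap17a, Pde7a, Pde6a, Pde6g, Pde9a, Pde3a, Pde3b and Adcy6 had no match. Capitals mark the full element or its core TGACG, which reads CGTCA on the opposite strand. The full element contains the core, and both strands were searched.
Prkar1a (chr11:109650889-109650918, + strand, element at position -49): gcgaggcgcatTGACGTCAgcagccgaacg
Prkaca (chr8:83972846-83972875, + strand, core at position -120): gtctgcaactcgCGTCActcatccaggagc
Prkar2b (chr12:32061278-32061377, - strand, the 100 bases before 1 of its 2 annotated starts): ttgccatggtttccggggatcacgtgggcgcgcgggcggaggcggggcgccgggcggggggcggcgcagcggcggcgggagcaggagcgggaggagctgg

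Prkar1a was the only one of the 41 genes with the full element (2.44%), which 3.11% of tested genes with a promoter window carried. The core, alone or within the full element, was present in 15 of the 41 (36.6%), against 31.8% of tested genes. None of the 4 genes called as higher had either in its windows, and 1 of the 3 called as lower, Prkaca, had the core. In that Prkaca window the core lay at position -6 as well as at -120. The Prkar1a element shown also lies in an overlapping window, at position 38 from another annotated start. Among PKA genes that were not called, Prkacb (position -102), Prkar1b (-49) and Prkar2a (-4) also had the core, and Prkar1a the full element. These letter matches describe windows only, and no binding was measured.

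Of the 50 genes, 49 passed the filter on low counts and were tested. In heterozygous ovaries 4 rose (Prkar2b, Adcy1, Adcy5 and Akap13) and 3 fell (Prkaca, Pde1b and Akap1) at an adjusted p under 0.05 by edgeR's quasi-likelihood test. That is 14.3% of those tested, where 9.64% of all 16841 tested genes were called, 3.9% as higher and 5.74% as lower. The median log2 fold change was -0.05, against -0.008 over all tested genes. Genotypes were fully separated, with no overlap of values, for 24 of the 49 genes, against 32% of all tested genes. Without wild-type replicate 3, 10 of 50 genes were called, where 16.2% of all genes were. DESeq2 called 11 of 49, where it called 15.5% of all genes. The additions were Adcy6, Pde1a and Akap5 without wild-type replicate 3, and Pde7b, Akap7, Pde1a and Pde2a with DESeq2. The p-values weigh each difference against the spread among 3 mice a group, as estimated with information shared across genes.

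**Figure D1:**
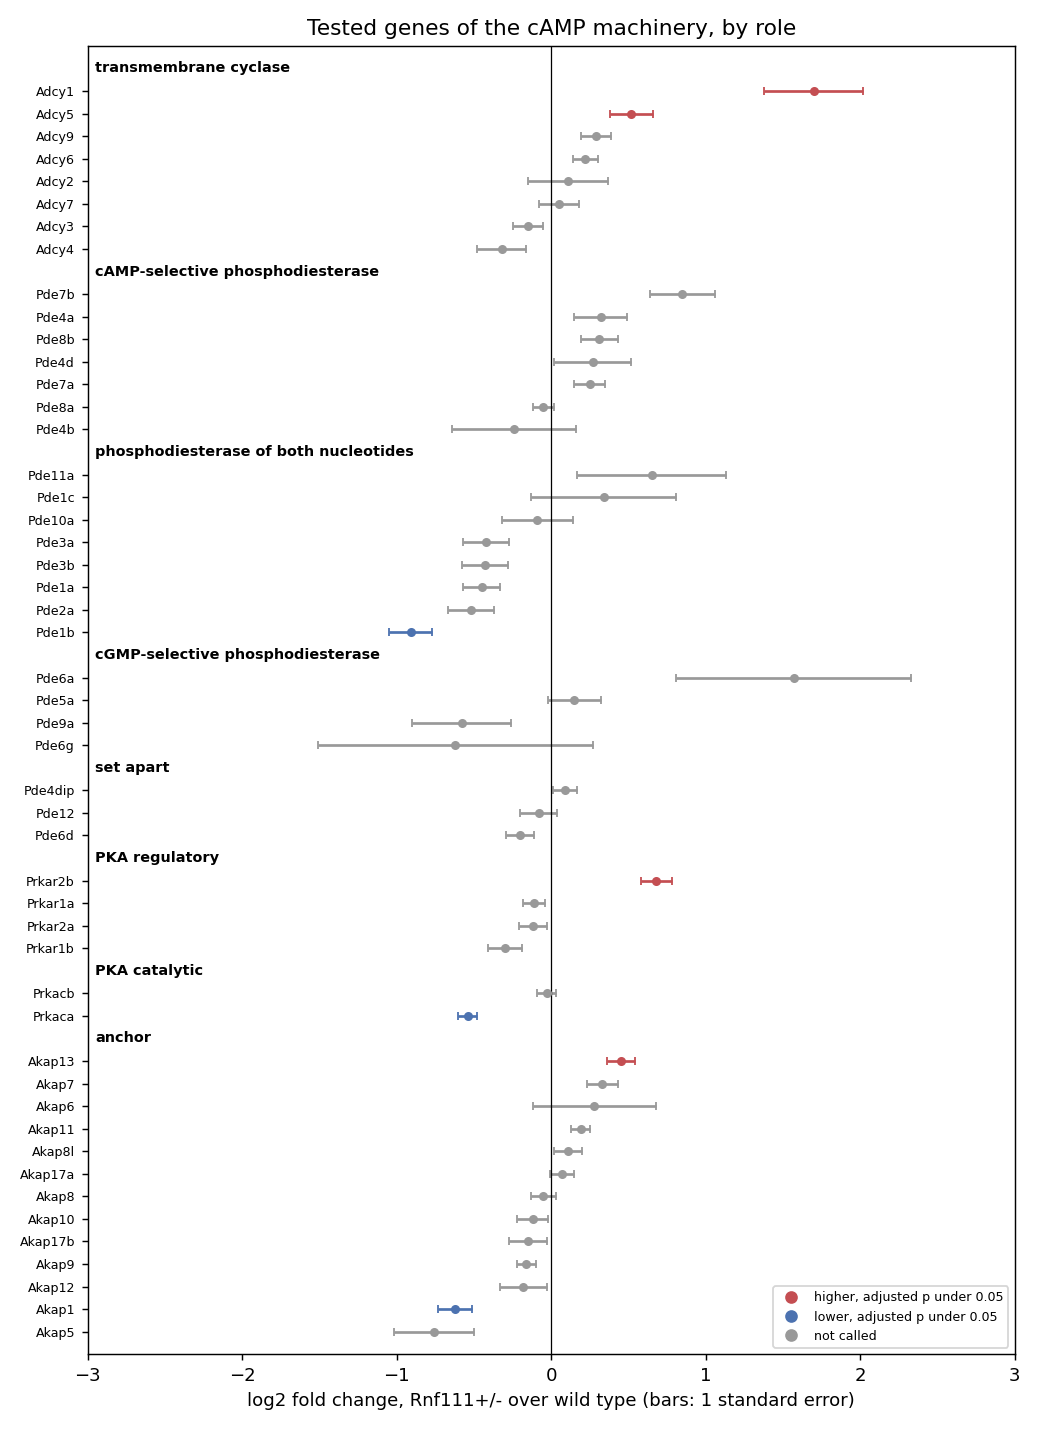
Log2 fold change of Rnf111+/- over wild-type ovaries (x axis) for the 49 tested genes, grouped by role, with bars of 1 standard error. Red and blue points are the 4 genes called as higher and the 3 called as lower, and grey points were not called; Adcy1 lies farthest to the right at 1.70 and Pde1b farthest to the left at -0.91.

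Among PKA subunits, 1 regulatory gene rose and 1 catalytic gene fell, and the other 4 did not pass (all tested genes: 9.64% called). Per kilobase of exon (union of GENCODE M21 exons, which may differ from the annotation the counts were made with), Prkar2b and Prkar1a had the highest levels of the 49 genes with a length, at 206.8 and 141 CPM per kilobase in wild-type ovaries. Prkaca followed at 67.1 and Akap1 at 27.8, ahead of Adcy9 at 22.6 and Pde8a at 19.7 CPM per kilobase.

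Prkar2b encodes the RII-beta regulatory subunit, which follicle-stimulating hormone induces in granulosa cells. It was at 804, 738 and 723 CPM in wild-type libraries and at 1076, 1380 and 1160 CPM in heterozygous libraries. Every heterozygous library lay above every wild-type library, with replicate 2 the highest. The means were 755 ± 43.4 and 1206 ± 157 CPM (SD, n = 3 each), a 1.6-fold difference (log2 0.68 ± 0.10 SE, adjusted p = 0.00627), and the call held in all 6 fits that left out 1 library. Summed granulosa markers were at 3468 to 7406 CPM in wild-type and at 8103 to 10790 CPM in heterozygous ovaries, with 1 of 10 called as higher and 9 of 10 above 0. Markers of cumulus and ovulating granulosa were lower in sum, at 352 to 794.5 against 108.3 to 127.9 CPM. Of 9 tested, 4 were called as lower and 4 lay above 0. The lowest granulosa sum, 3468 CPM, was that of wild-type replicate 3, whose Prkar2b level was 723 CPM beside 738 and 804 in the others. The part of granulosa content in the Prkar2b difference was not tested.

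Prkaca encodes the C-alpha catalytic subunit. It was at 167.7, 164 and 169 CPM in wild-type libraries and at 115.9, 111 and 118.5 CPM in heterozygous libraries, a gap far wider than the spread within either genotype. The heterozygous mean was 68.9% of the wild-type mean (167 ± 2.43 against 115 ± 3.84 CPM; log2 -0.54 ± 0.06, adjusted p = 0.00192), and this call too held in all 6 leave-one-out fits. Prkacb, which encodes C-beta, overlapped between genotypes at 138 ± 4.35 against 136 ± 3.28 CPM (log2 -0.03, with an interval of 2 standard errors from -0.15 to 0.10, adjusted p = 0.839).

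The other regulatory genes did not pass. Prkar1a, which encodes RI-alpha, was at 609 ± 26.8 against 565 ± 20 CPM (log2 -0.11 ± 0.07, adjusted p = 0.368). Prkar2a, which encodes RII-alpha, was at 55.8 ± 3.5 against 51.5 ± 4.66 CPM (-0.12 ± 0.09, adjusted p = 0.473). Prkar1b, which encodes RI-beta, was at 24.5 ± 2.07 against 19.9 ± 1.39 CPM with no overlap (-0.30 ± 0.11, adjusted p = 0.124).

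The makeup of the PKA pool was compared through ratios of counts within each library, chosen after the values were seen. Prkar2b made up 55.1, 51.2 and 50.5% of regulatory subunit counts in wild type and 63.5, 68.4 and 64% in Rnf111+/-. Prkar1a made up 42.2 ± 2.26% and 30.8 ± 2.36%. For each Prkacb count there were 1.19, 1.16 and 1.27 Prkaca counts in wild type and 0.85, 0.798 and 0.895 in Rnf111+/-. In raw counts, Prkaca thus gave the larger share in every wild-type library and the smaller in every heterozygous one. These counts are not corrected for exon length (2.488 kb for Prkaca, 8.772 kb for Prkacb). With that correction Prkaca stayed the higher gene, at 67.1 against 15.8 CPM per kilobase in wild-type and 46.3 against 15.5 in heterozygous ovaries. Per kilobase of exon, regulatory RNA exceeded catalytic RNA 4.38 ± 0.0545-fold in wild-type and 7.69 ± 0.858-fold in heterozygous ovaries (SD, n = 3 each). The ratios Prkar2b to Prkar1a, Prkar2b to Prkar2a, Prkaca to Prkacb and regulatory to catalytic each separated the genotypes. An exact two-sided permutation test gave p = 0.1 for each of these 4 ratios (0.1 after adjustment over them), the smallest that 3 against 3 can give. These are RNA ratios, and subunit proteins were not measured.

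**Figure D2:**
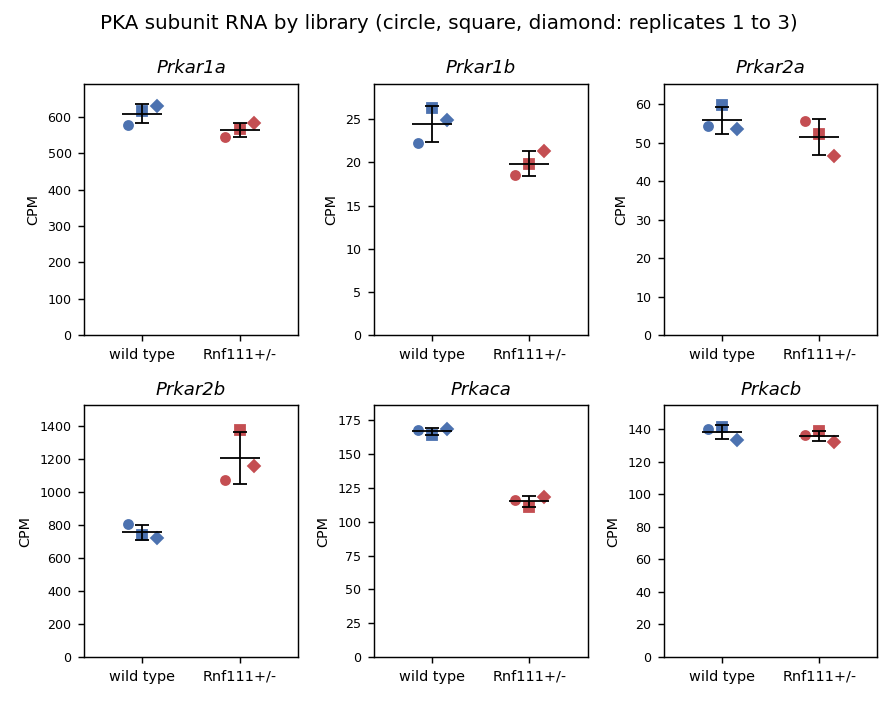
PKA subunit levels in CPM (y axis, from 0) for each library, with black bars for the mean and SD of 3 libraries. The Prkar2b points of Rnf111+/- ovaries (1076 to 1380) lie above those of wild type and the Prkaca points (111 to 118.5) below, while Prkar1a, Prkar2a and Prkacb overlap.

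Of 8 transmembrane cyclases, 2 rose and 6 did not pass (all tested genes: 3.9% higher, 5.74% lower). The median log2 fold change was 0.165. Adcy1, the cyclase stimulated by calcium and calmodulin, was scarce, with 24, 19 and 20 counts in wild type and 67, 79 and 62 in Rnf111+/-. All heterozygous values were above all wild-type values, 3.26-fold on average (0.543 ± 0.0726 against 1.77 ± 0.217 CPM; log2 1.70 ± 0.32, adjusted p = 0.0153). The call was lost without wild-type replicate 2 (adjusted p = 0.0551), heterozygous replicate 2 (0.0778) or heterozygous replicate 3 (0.0567). Adcy5, a cyclase that calcium inhibits, was at 18.4, 24.4 and 24.3 CPM in wild-type libraries and at 30.5, 30 and 36.2 CPM in heterozygous libraries. The groups did not overlap (22.4 ± 3.42 against 32.2 ± 3.43 CPM; log2 0.52 ± 0.14, adjusted p = 0.0453). Of the 6 fits without 1 library, the Adcy5 call held only without wild-type replicate 3 (adjusted p = 0.0138) and reached 0.163 without heterozygous replicate 3.

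Adcy9 and Adcy6 were the most abundant cyclases per kilobase of exon, at 22.6 and 14 CPM per kilobase in wild-type ovaries. Adcy6, the close relative of Adcy5, was at 95.2 ± 8.84 against 110.9 ± 4.77 CPM (log2 0.22 ± 0.08, adjusted p = 0.137) and Adcy9 at 117.5 ± 10.4 against 143.8 ± 17.7 CPM (0.29 ± 0.10, adjusted p = 0.119). Neither passed although neither overlapped. Without wild-type replicate 3, whose Adcy6 level of 105.1 CPM was nearly that of heterozygous replicate 3 (105.4), Adcy6 passed at 0.31 (adjusted p = 0.0143).

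Adcy3, known from olfactory neurons, was at 56 ± 7.38 against 50.4 ± 0.556 CPM (log2 -0.15 ± 0.10, adjusted p = 0.383). Wild-type replicate 3 was its highest library, at 64.5 CPM, and without it the log2 fold change was -0.03. Adcy4 was at 8.75 ± 0.45 against 7.03 ± 0.811 CPM (-0.32 ± 0.16, adjusted p = 0.246). Endothelial markers were lower at the same time, with 4 of 8 called and sums of 402 to 469.9 against 300.5 to 346.4 CPM, and their part in the Adcy4 values was not tested. Adcy2 (0.11 ± 0.26) and Adcy7 (0.05 ± 0.13) overlapped between genotypes. In heterozygous replicate 1, Adcy7 was at 40.8 CPM beside 29.2 and 30.5 CPM in the others. Under the count minimum were Adcy8, with 2 to 12 counts a library, and the soluble cyclase gene Adcy10, with at most 1.

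**Figure D3:**
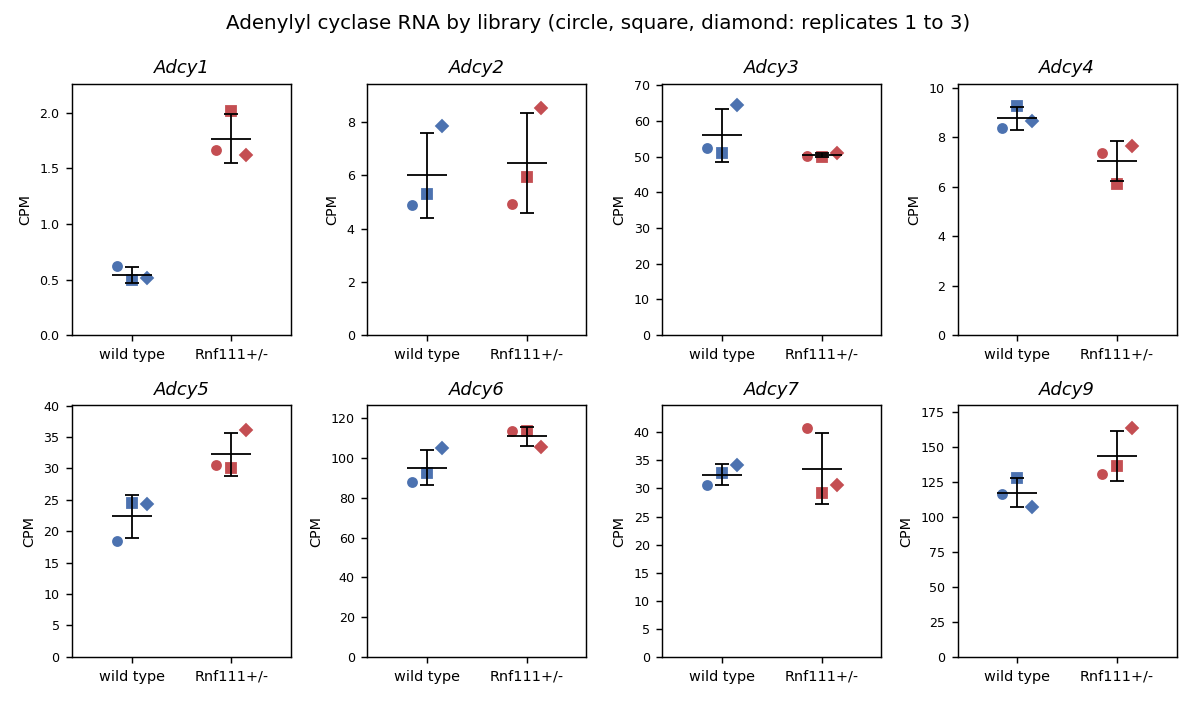
Levels of the 8 transmembrane cyclases in CPM (y axis, from 0) for each library, with black bars for the mean and SD of 3 libraries. Adcy1 and Adcy5 are higher in every Rnf111+/- library than in any wild-type library, and in the Adcy6 panel wild-type replicate 3 (105.1) nearly meets heterozygous replicate 3 (105.4).

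Phosphodiesterases that hydrolyse both nucleotides had 1 fall and no rise among 8 (all tested genes: 3.9% higher, 5.74% lower). None of these genes above 0 had an unadjusted p under 0.05 or passed with DESeq2, and their median log2 fold change was -0.425. Pde1b, a calmodulin-activated enzyme, was at 13.7, 13.2 and 15.3 CPM in wild-type libraries and at 8.24, 6.9 and 7.39 CPM in heterozygous libraries. The heterozygous mean was 53.4% of the wild-type mean, the groups lay well apart, and the difference passed (14.1 ± 1.07 against 7.51 ± 0.682 CPM; log2 -0.91 ± 0.14, adjusted p = 0.007) with all libraries and in all 6 leave-one-out fits.

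Below the wild-type range in every heterozygous library, but not called, were Pde1a, Pde2a, Pde3a and Pde3b. Pde1a, the other abundant calmodulin-activated enzyme, was at 38.6, 48.4 and 39 against 29, 28.6 and 34.7 CPM (log2 -0.45 ± 0.12, adjusted p = 0.0524). It passed without wild-type replicate 3 (adjusted p = 0.0191), with DESeq2 (0.0157) and without a filter on low counts (0.0241). Pde2a, which cyclic GMP activates, was at 36.1, 31.6 and 46.6 against 27.4, 23.6 and 29 CPM (-0.52 ± 0.15, adjusted p = 0.067), and passed with DESeq2 (0.021) and without a filter (0.0375). In wild-type replicate 3 Pde2a was highest, and without that library the log2 fold change was -0.33 (adjusted p = 0.0678).

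Pde3a, which cyclic GMP inhibits and which lowers cyclic AMP in the oocyte when meiosis resumes, was at 17.5, 17.7 and 24.6 against 14.2, 15.3 and 15.2 CPM (log2 -0.42 ± 0.15, adjusted p = 0.122). Wild-type replicate 3 was again the highest, and without it the value was -0.23 (adjusted p = 0.222). Oocyte markers moved the other way, with 7 of 10 called as higher and sums of 178.9 to 197.7 against 248.7 to 333.2 CPM. Smooth muscle and pericyte markers were lower, with 2 of 8 called and sums of 1217 to 1532 against 815 to 1061 CPM. Stromal markers were lower too, with 5 of 8 called and sums of 3529 to 4145 against 2200 to 2594 CPM. The part of these cell types in the Pde1a, Pde2a and Pde3a values was not tested. Pde3b was at 12.5 ± 1.75 against 9.33 ± 0.559 CPM (-0.43 ± 0.15, adjusted p = 0.117).

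The rest of this group overlapped between genotypes. Pde10a ranged from 13.1 to 16.6 CPM in wild-type and from 9.82 to 19.1 CPM in heterozygous libraries (log2 -0.09 ± 0.23). Pde11a was at 1.23 ± 0.555 against 1.92 ± 0.834 CPM (0.65 ± 0.48, adjusted p = 0.448), and Pde1c had 12 to 26 counts a library.

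None of the 7 cyclic AMP-selective phosphodiesterases passed edgeR's test, 1 passed with DESeq2, and 3 had an unadjusted p under 0.05; their median log2 fold change was 0.27. Pde7b came closest: it was at 47.4, 44.9 and 49.1 CPM in wild-type libraries and at 57.5, 107.6 and 89.4 CPM in heterozygous libraries. All heterozygous values were higher, but replicate 1 was far nearer the wild-type range than the other two (47.1 ± 2.1 against 84.8 ± 25.4 CPM; log2 0.85 ± 0.21, adjusted p = 0.0556). Without heterozygous replicate 1 it passed (1.06, adjusted p = 0.00399), as it did with DESeq2 (0.000329), upper-quartile scaling (0.0485) and a stricter filter (0.0462). Pde7a was at 34.1 ± 2.91 against 40.7 ± 3.05 CPM (0.25 ± 0.10, adjusted p = 0.149).

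Pde8a and Pde8b encode high-affinity enzymes with a part in steroid-making cells. Pde8a, the most abundant of the group per kilobase, was at 79.8 ± 3.73 against 77.1 ± 3.56 CPM (log2 -0.05, with an interval of 2 standard errors from -0.19 to 0.09). Pde8b was at 15.2 ± 0.862 against 18.9 ± 2.23 CPM with no overlap (0.31 ± 0.12, adjusted p = 0.165).

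Enzymes of the PDE4 family, which hormone signalling itself induces in many cells, varied between mice of 1 genotype. Pde4b was at 5.66, 7.52 and 8.63 CPM in wild-type libraries and at 2.76, 9.25 and 6.48 CPM in heterozygous libraries (log2 -0.24 ± 0.40, adjusted p = 0.762). Pde4d was at 14.8, 13.6 and 16.5 against 11.4, 23.8 and 19.2 CPM (0.27 ± 0.25, adjusted p = 0.542). For both genes heterozygous replicate 1 was the lowest library of all and replicate 2 the highest. Pde4a was at 9.29 ± 0.8 against 11.6 ± 2.04 CPM (0.32 ± 0.17, adjusted p = 0.272), and Pde4c, just under the count minimum, had 11, 9 and 4 counts in wild type and 3, 0 and 5 in Rnf111+/-.

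The cyclic GMP-selective group gave no call among 4 tested genes by edgeR or DESeq2, and none had an unadjusted p under 0.05. Pde5a was its most abundant member, at 56.9, 59.2 and 83.1 against 65.2, 68.1 and 87.5 CPM (log2 0.15 ± 0.17, adjusted p = 0.652). Pde9a was at 1.82 ± 0.279 against 1.22 ± 0.341 CPM (-0.58 ± 0.32, adjusted p = 0.308). Genes of the photoreceptor enzyme were near the detection floor: Pde6a had 12, 3 and 1 against 21, 15 and 13 counts, and Pde6b 6, 3 and 9 against 10, 16 and 11. Both met the count minimum through the heterozygous libraries. Pde6a gave a log2 fold change of 1.57 ± 0.76 (adjusted p = 0.24), and Pde6b was not tested. Pde6g had 17, 11 and 1 against 5, 3 and 11 counts (-0.62 ± 0.89), and Pde6h, under the minimum, 5, 7 and 22 against 0, 5 and 1.

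Pde6d, Pde12 and Pde4dip match by name but do not hydrolyse cyclic nucleotides. Pde6d encodes a carrier of lipid-modified proteins, Pde12 an enzyme of RNA turnover and Pde4dip myomegalin, a centrosomal and Golgi protein. None passed edgeR's test or DESeq2, none had an unadjusted p under 0.05, and their log2 fold changes were -0.20, -0.08 and 0.09.

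**Figure D4:**
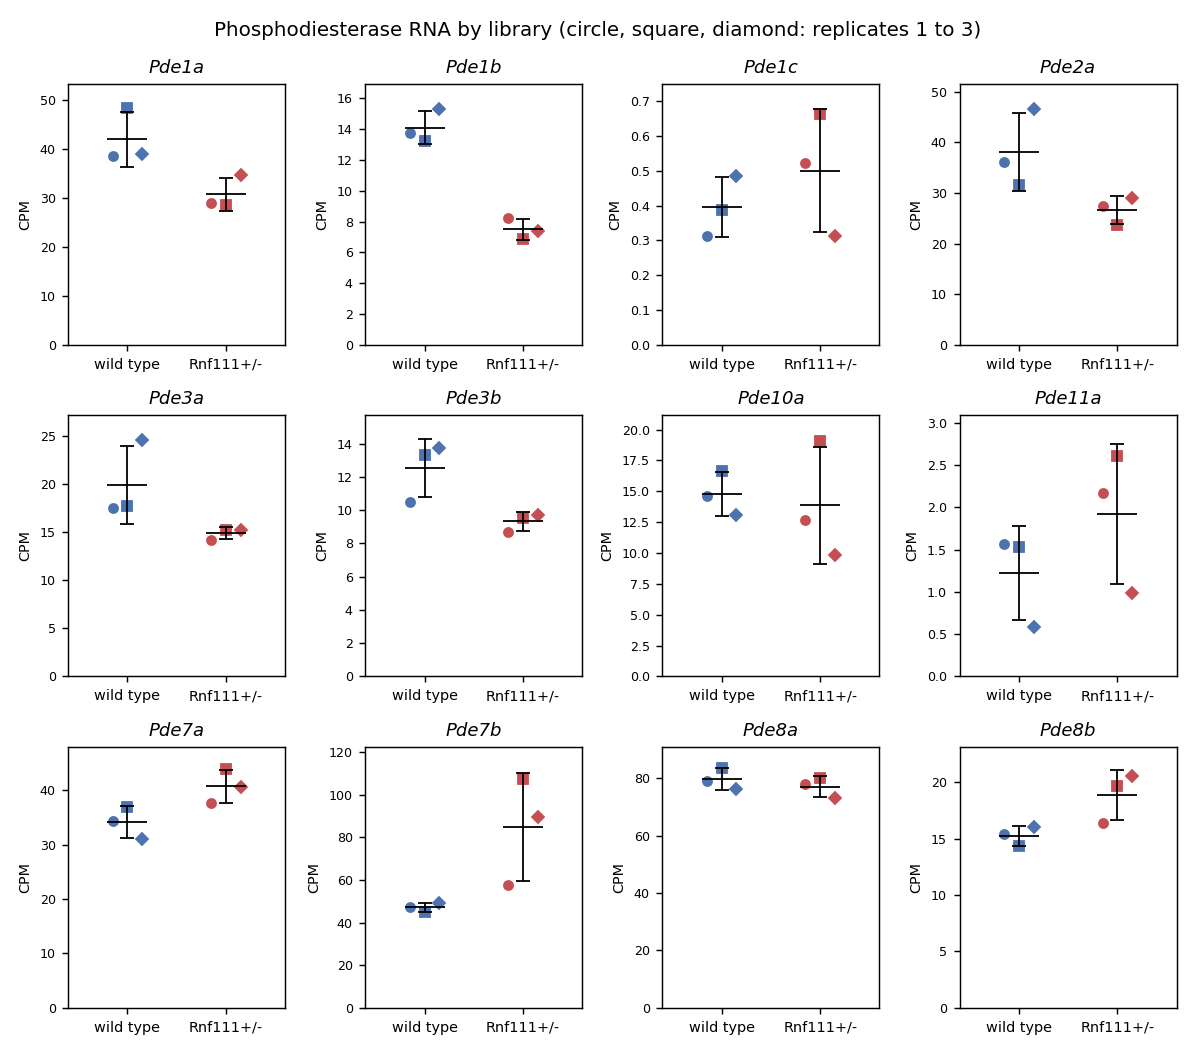
Levels of 12 phosphodiesterase genes in CPM (y axis, from 0) for each library, with black bars for the mean and SD of 3 libraries. Pde1a, Pde1b, Pde2a, Pde3a and Pde3b are lower in every Rnf111+/- library than in any wild-type library, Pde1b alone being called; Pde7b spreads from 57.5 to 107.6 in Rnf111+/- ovaries.

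Of 13 anchors, 1 rose, 1 fell and 11 did not pass, with a median log2 fold change of -0.05. Akap1, which holds PKA at the outer mitochondrial membrane, was at 121, 142.1 and 103.4 CPM in wild-type libraries and at 83.2, 77.4 and 77.7 CPM in heterozygous libraries. The heterozygous libraries were close to each other and all below the lowest wild-type library. Their mean was 65% of the wild-type mean (122 ± 19.4 against 79.4 ± 3.23 CPM; log2 -0.62 ± 0.11, adjusted p = 0.0125). The Akap1 call was lost without heterozygous replicate 2 (adjusted p = 0.0686) or 3 (0.0646). Theca and interstitial markers were lower in sum at the same time, at 9076 to 9906 against 6128 to 7900 CPM, with 3 of 8 called as lower. Most single markers of that list went the other way: 5 of 8 lay above 0, the median log2 fold change was 0.15, and Cyp17a1 was called as higher. Their part in the Akap1 difference was not tested.

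Akap13, a large anchor that is also a guanine nucleotide exchange factor, was at 108, 122.9 and 134.4 CPM in wild-type libraries and at 172.6, 153.4 and 172.6 CPM in heterozygous libraries. No values overlapped (121.8 ± 13.3 against 166 ± 11.1 CPM; log2 0.45 ± 0.09, adjusted p = 0.0222). The call held without wild-type replicate 3 or heterozygous replicate 2 and was lost in the other 4 leave-one-out fits, with adjusted p up to 0.0936.

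Uncalled anchors lay between -0.76 and 0.33 on the log2 scale. At the low end was Akap5, a scaffold for PKA and calcineurin, with 159, 154 and 109 counts against 95, 94 and 65 (log2 -0.76 ± 0.26, adjusted p = 0.112). It passed without wild-type replicate 3 (-0.90, adjusted p = 0.0351). At the high end was Akap7, a membrane anchor, at 28.5 ± 1.57 against 35.8 ± 3.4 CPM (0.33 ± 0.10, adjusted p = 0.0749), which passed with DESeq2 (0.0284). Small differences without overlap and without a call were seen for Akap9, of the centrosome and Golgi (135.3 ± 2.31 against 120.8 ± 4.59 CPM; -0.16 ± 0.06), and for Akap11 (83.4 ± 0.763 against 95 ± 3.56 CPM; 0.19 ± 0.06). The nuclear anchor gene Akap8 (-0.05 ± 0.08) and its relative Akap8l (0.11 ± 0.09) overlapped, as did Akap10 (-0.12 ± 0.10), Akap12 (-0.18 ± 0.15), Akap17a (0.07 ± 0.08), Akap17b (-0.15 ± 0.12) and Akap6 (0.28 ± 0.40), all as log2 fold changes. Akap14, Akap3 and Akap4 were under the count minimum, and Akap4 had no count.

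**Figure D5:**
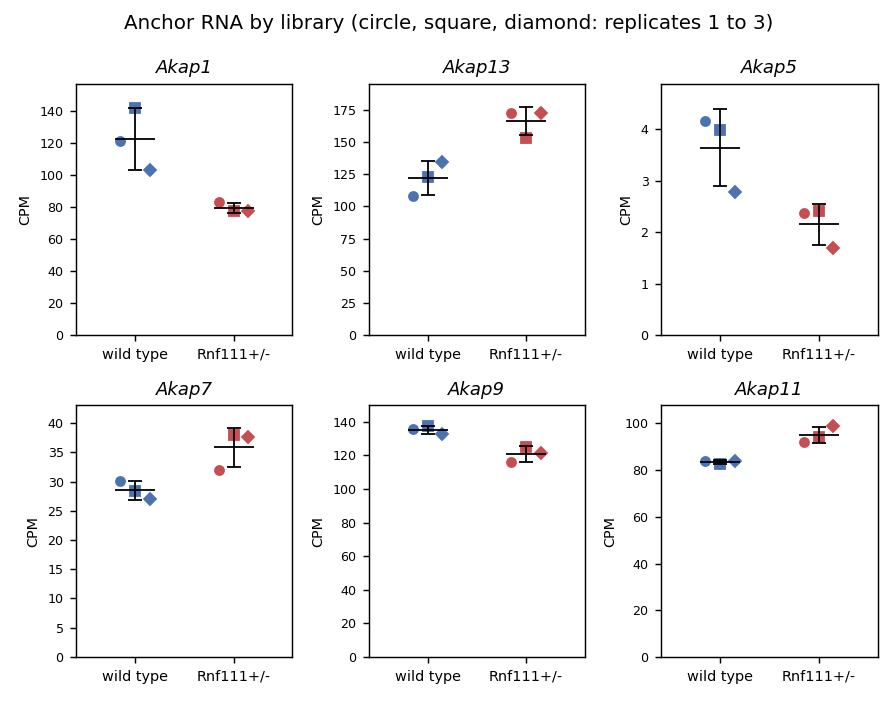
Levels of 6 anchor genes in CPM (y axis, from 0) for each library, with black bars for the mean and SD of 3 libraries. Akap1 (77.4 to 83.2 in Rnf111+/-) is lower and Akap13 (153.4 to 172.6) higher in every Rnf111+/- library; the other 4 do not overlap either but were not called.

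Among genes upstream of the cyclases, median log2 fold changes were -0.08 for G proteins and 0 for receptors. The calls below stand beside 9.64% of all tested genes called by edgeR. DESeq2 called 15.5% of all tested genes, with 2 G protein genes higher and 4 lower, and 4 receptor genes higher and 3 lower. Gnas, which encodes the stimulatory G protein subunit, was at 1021 ± 21.9 against 992 ± 38.4 CPM (log2 -0.04 ± 0.07, adjusted p = 0.744). Among 29 G protein and regulator genes, none rose by edgeR (3 above 0 had an unadjusted p under 0.05) and 2 fell: Gnao1 (43.4 ± 3.21 against 32.7 ± 1.86 CPM; -0.41 ± 0.09) and Gna11 (150.6 ± 13 against 119 ± 4.72 CPM; -0.34 ± 0.08). Grk3 (0.72 ± 0.19, adjusted p = 0.0534) and Gnai1 (0.50 ± 0.14, adjusted p = 0.061), named after their values were seen, were called as higher with DESeq2 (0.00576 and 0.0129) and without wild-type replicate 3 (0.00118 and 0.00891). Of 29 tested Gs- or Gi-coupled receptor genes, 1 rose (Crhr1, with 6, 1 and 0 against 76, 88 and 78 counts) and 1 fell. The fall was that of Adcyap1r1, the PACAP receptor, with 179, 291 and 317 against 98, 74 and 125 counts (-1.42 ± 0.29, adjusted p = 0.0198).

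Effectors of cyclic AMP other than PKA were listed together with the small G protein Rap1 and its regulators. These genes had 2 rises and 4 falls among 17 tested, at a median log2 fold change of -0.14. Over all tested genes, edgeR called 3.9% as higher and 5.74% as lower. Popeye proteins, membrane proteins that bind cyclic AMP, moved in both directions. Popdc2 rose from 105, 82 and 77 counts to 330, 230 and 251 (1.59 ± 0.23, adjusted p = 0.0048), while Bves fell from 401, 519 and 890 counts to 155, 192 and 120 (-1.97 ± 0.31, adjusted p = 0.00921). Popdc3, named after its values were seen, fell from 28, 27 and 33 counts to 8, 4 and 4 (-2.45 ± 0.49, adjusted p = 0.0185). Rap1gap, which turns off the small G protein that the cyclic AMP-activated exchange factors turn on, fell from 19.3 ± 0.354 to 8.33 ± 2.77 CPM (-1.21 ± 0.22, adjusted p = 0.0141). Calls of Popdc2 and Bves held in all 6 leave-one-out fits, that of Rap1gap in 5 and that of Popdc3 in 2.

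Among 7 genes of kinase inhibitor peptides and related regulators of PKA, none passed by edgeR or DESeq2 and 1 had an unadjusted p under 0.05, their median log2 fold change was 0.19, and those of smallest p were Arfgef1 (log2 0.19 ± 0.07, adjusted p = 0.154) and Pkig (0.16 ± 0.07, adjusted p = 0.22). Of 32 tested genes listed as anchors under another name, 3 rose and 2 fell, with a median of 0.06, where 9.64% of all tested genes were called. The list was drawn up by name, and whether each product anchors PKA was not checked. Dact1 rose from 36.6 ± 10.4 to 129.8 ± 4.36 CPM (1.83 ± 0.19, adjusted p = 0.00231) and Mtcl1 by 1.14 ± 0.20. Ezr, which encodes ezrin, fell from 205.3 ± 11.1 to 156 ± 3.21 CPM (-0.39 ± 0.07, adjusted p = 0.0104), and Neurl1a was at -0.91 ± 0.20.

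The CREB family and its coactivators had 1 rise, Atf2 (log2 0.27 ± 0.07, adjusted p = 0.0427), and 1 fall, Creb3 (-0.47 ± 0.09, adjusted p = 0.0175), among 19 genes with a median of 0.09. Of 37 tested genes that cyclic AMP or CREB is known to induce, 4 rose and 5 fell, with a median log2 fold change of 0.03. Both lists stand beside 9.64% of all tested genes called by edgeR. Gem rose from 40.9 ± 3.1 to 71.7 ± 4.61 CPM (0.81 ± 0.09, adjusted p = 0.00139), and the immediate early gene Fos from 329, 348 and 282 counts to 633, 782 and 922 (1.27 ± 0.18, adjusted p = 0.00472). The steroidogenic targets went in both directions. Star (log2 -0.84 ± 0.12) and Hsd3b1 (-0.53 ± 0.10) were called as lower, as was Fdx1 (-0.83 ± 0.16, adjusted p = 0.0218). Cyp19a1, the aromatase gene of granulosa cells, was called as higher (9.8 ± 2.24 against 49.8 ± 22.4 CPM; 2.35 ± 0.39, adjusted p = 0.0188). Fdx1 and Cyp19a1 were named after their values were seen. The Cyp19a1 call was lost without wild-type replicate 3 (0.0725) and held in 2 of the 6 leave-one-out fits, and the Fdx1 call held in 4.

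On the cyclic GMP side, 2 of 14 tested genes fell and none rose by edgeR (2 above 0 had an unadjusted p under 0.05), with a median log2 fold change of -0.05. For this list and the phosphatases below, the edgeR shares over all tested genes were 3.9% higher and 5.74% lower. Prkg2, a cyclic GMP-dependent kinase, had 250, 238 and 477 counts in wild type and 59, 66 and 68 in Rnf111+/- (log2 -2.33 ± 0.30, adjusted p = 0.00335). Npr1, a natriuretic peptide receptor that makes cyclic GMP, fell from 197 ± 6.44 to 132 ± 11.5 CPM (-0.58 ± 0.08, adjusted p = 0.0041). Npr2, the other natriuretic peptide receptor with cyclase activity, was higher in every heterozygous library (87.7 ± 21 against 149.5 ± 21.1 CPM; 0.77 ± 0.19) and just missed the threshold (adjusted p = 0.0522). It was called with DESeq2 (0.000411), limma-voom (0.0324), upper-quartile scaling (0.0475), a stricter filter (0.0441) and without wild-type replicate 3 (0.00565). Of 15 phosphatase genes that oppose PKA or regulate that step, 3 fell and none rose by edgeR or DESeq2 (2 above 0 had an unadjusted p under 0.05; median -0.04): the catalytic subunit genes of protein phosphatase 1, Ppp1cb (-0.29 ± 0.06), Ppp1cc (-0.31 ± 0.07) and Ppp1ca (-0.26 ± 0.06). In fits without 1 library, the calls of Gnao1, Gna11, Neurl1a, Atf2 and the 3 phosphatase genes held only without wild-type replicate 3. Creb3 held in 2 of 6 such fits, Adcyap1r1, Mtcl1 and Hsd3b1 in 3, Ezr in 4, and Crhr1, Dact1, Gem, Fos, Star, Prkg2 and Npr1 in all 6.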

How the data were processed

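Counts are as the authors deposited them: whole reads for each gene symbol, not normalised, in 6 library columns of 1 table. Per the submitters' processing notes, the tools were HTSeq (0.11.2), HISAT2 (2.1.0), DESeq2 (1.38.3) and fastp (0.20.1), with build GRCm39. What each did, the annotation and the strand setting are not stated there, and overlapping or antisense genes may share reads. Groups follow the genotype labels. Counts were fitted with edgeR (4.0.16) in R (4.3.3): filterByExpr (minimum count 10, minimum total 15), TMM scaling, a robust quasi-likelihood model with genotype only, and Benjamini-Hochberg adjustment over all 16841 genes tested. Standard errors are the absolute log2 fold change over the square root of F. The fit was tested on simulated data. Replicates differed beyond sampling noise (closest pair, chi-square 12.4 per degree of freedom). Floors cover counting error only. Alternatives were 2 scalings, 2 filters, DESeq2 (1.42.0), limma-voom (limma 3.58.1), a replicate block, a threshold of 0.1 and leaving out each library. The genes, lists and tests were chosen with earlier results of these data known. The naming rule took called genes, all PKA subunits and cyclases, Pde3a, Pde3b, the Pde4 genes, Pde5a, Pde8a, Pde8b and Pde10a, the 2 largest uncalled changes of each role, and up to 4 called genes of smallest p per further list (with none called, the 2 of smallest p). Members outside it were named after their values were seen. No columns were without a sample (0). Of the further lists, 1 called gene is not reported here.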

Additional observations from a re-analysis of the deposited data

How the results depend on the processing

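The numbers of genes called as higher (4) and lower (3) were 4 and 3 with DESeq2's size factors and with limma-voom, 5 and 3 with upper-quartile scaling and with a stricter filter, 4 and 5 without a filter, 6 and 5 with DESeq2, and 6 and 5 at an adjusted p under 0.1. Leaving out 1 library in turn gave 1 to 5 as higher and 2 to 5 as lower; the lowest counts as higher, 1 each, came when wild-type replicate 2 or heterozygous replicate 3 was dropped, and both highest counts when wild-type replicate 3 was. Dropping wild-type replicate 1 or heterozygous replicate 2 left 2 called as higher. All 7 called genes stayed called in each of the settings that kept all libraries; Prkar2b, Prkaca and Pde1b also stayed called without each single library. No call changed direction in any of these settings. For the further lists, higher and lower calls with DESeq2 and without wild-type replicate 3 were, in that order, 2 and 4, then 2 and 3, for G proteins (0 and 2 by edgeR on all libraries), 4 and 3, then 4 and 3, for receptors (1 and 1), 5 and 3, then 6 and 5, for other-named anchors (3 and 2), 3 and 2, then 2 and 3, for the CREB family (1 and 1), and 1 and 2, then 2 and 2, for cyclic GMP genes (0 and 2). G proteins also had 2 higher calls with upper-quartile scaling, without a filter and with the replicate block, and no call in either direction in the 5 fits that dropped another library; phosphatase genes had no call in those 5 either, and 1 higher call without wild-type replicate 3. With the replicate number as a block, 4 were called as higher and 4 as lower, Pde2a being added (adjusted p = 0.0267) and Rnf111 lost (0.0653); Rnf111 was also lost with upper-quartile scaling (0.0602) and without a filter (0.0762). No pairing of mice by number is stated. Deviations of same-numbered mice correlated at 0.0226, 0.0306 and 0.166, and 2 of 6 libraries correlated best with their own number. With 3 mice a group, these values cannot settle whether the numbers pair the mice. Fewer samples enter each leave-one-out fit; otherwise the cause of these changes was not tested. Depth limits Adcy1, Pde1c, Akap6, Pde9a, Pde6a, Pde6b and Pde6g, which had under 100 counts in every library.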
